A study of Mus musculus with 36 samples.

Results

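The 1000 largest H3K27me3 domains of control hippocampus were followed through the chromatin maps of CKp25 and CK mice. H3K27me3 peaks of both CK lists with a deposited -log10 p of at least 5 were pooled on the autosomes, overlaps were merged, and merged peaks within 5 kb of each other were stitched into domains. The 67516 pooled peaks (27497 from CK at 2 weeks and 40019 from CK at 6 weeks) gave 19309 domains, ranked by the summed length of their merged peaks. The 1000 members are 5.18% of these domains and hold 43.3% of their merged-peak length. CK H3K27me3 therefore chose the members, and H3K27me3 values in them are given as a description with no test.

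H3K27me3 is the trimethylation of lysine 27 of histone H3 that the Polycomb repressive complex PRC2 writes and that PRC1 reads. It marks silent genes, and its widest stretches in mammalian tissues lie over clusters of developmental regulators such as the Hox genes. Some of these stretches also carry H3K4me3, the mark of CpG-rich promoters, a state called bivalent. H3K4me1 and H3K27ac mark enhancers, with H3K27ac at the active ones, H3K36me3 and H4K20me1 lie over gene bodies, and H3K9me3 marks constitutive heterochromatin.

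The groups were CKp25 hippocampus at 2 and 6 weeks after induction of p25 and CK hippocampus of control littermates at the same 2 times, all from female mice given as 3 months old. CK-p25 mice are a double-transgenic model known for inducible forebrain expression of the Cdk5 activator p25, followed by neuronal loss. The labels call the littermates CK and do not say which transgenes they carry. Chromatin immunoprecipitation of 7 histone marks gave 1 peak list per mark and group, 28 in all, called against whole cell extract. The sources used here do not give whether animals were pooled for a list. With 1 list per group there is no replicate error, and 2 CKp25 against 2 CK lists cannot give an exact permutation p below 0.333, so no test was made on the lists. RNA was sequenced in 3 libraries per group. In bulk tissue, fewer cells of a type and less mark or RNA per cell cannot be told apart.

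The H3K27me3 lists covered 0.709% and 0.974% of the autosomes in CKp25 at 2 and 6 weeks, and 0.744% and 1.13% in CK. The 6-week lists were thus longer than the 2-week lists in both genotypes, and the CK list was the longer one at each time. Of the other marks, H3K9me3 had 1 short list, which covered 0.307% of the autosomes in CKp25 at 2 weeks, against 0.521% in CKp25 at 6 weeks and 0.525% and 0.529% in CK. No read depth stands behind these figures, because the lists give peaks and not reads.

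The members spanned 25.5 Mb, 1.03% of the autosomal length, of which 43.2% lay between merged peaks. Their merged peaks summed to 5.85 to 203.9 kb per domain (median 10.1 kb), in a span of 6.03 to 269.9 kb (median 20.7 kb). A member held 1 to 125 merged peaks, with a median of 11. Sizes were uneven: 12 members spanned 100 kb or more, 66 spanned 50 kb or more, and 107 spanned less than 10 kb. The 10 largest alone held 8.36% of the merged-peak length of the 1000. The limit at rank 1000 fell on a smooth slope. The last 3 members, chr11:118991957-119000645, chr2:150503505-150517833 and chr17:34385490-34404666, held 5853, 5852 and 5852 bp of merged peaks. The first 3 left out, chr4:99215460-99232520, chr9:63864521-63870406 and chr14:64166507-64180857, held 5851, 5840 and 5834 bp.

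**Figure D1:**
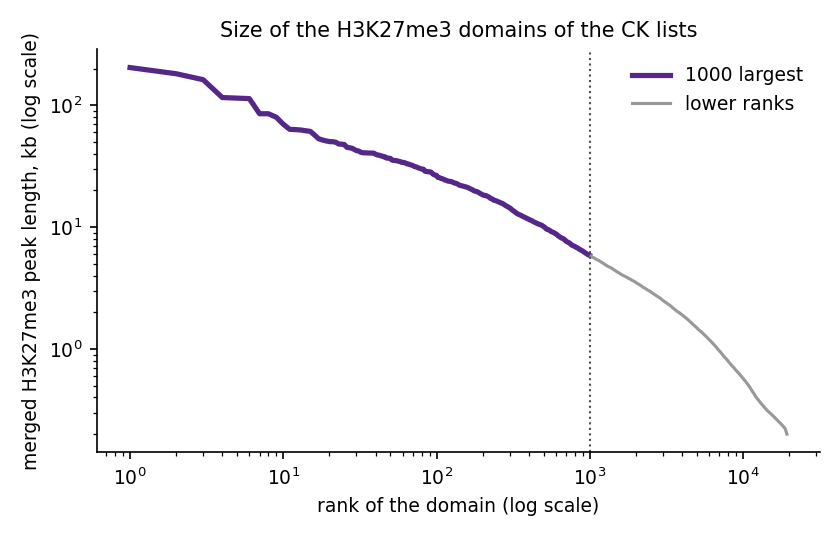
Summed length of merged H3K27me3 peaks (kb, log scale) against the size rank of each domain of the CK lists (log scale), with the 1000 largest as a thick line and lower ranks in grey. The slope shows no step at rank 1000 (dotted), where domains hold about 5.85 kb of merged peak.

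Members were unevenly spread over the chromosomes. Chromosome 2 held 127 of them and chromosome 11 held 84, against 14 on chromosome 16 and 18 on chromosome 15. Per 10 Mb this came to 6.99 on chromosome 2 and 6.89 on chromosome 11, and to 1.42 on chromosome 16 and 1.74 on chromosome 15. The median gap to the next member was 324.1 kb, and 24.6% of the 981 gaps were under 50 kb, so that many members lie in runs.

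The 10 largest domains, in mm9 coordinates, were chr11:95982654-96252525, chr15:102730372-102934452, chr6:52093638-52281648, chr7:144382828-144536884, chr2:74481431-74604154, chr11:44414630-44666368, chr9:107256986-107397126, chr1:78101470-78221120, chr5:139978389-140105368 and chr5:120213949-120317818. The mouse Hox clusters are on chromosomes 6, 11, 15 and 2, and each of these chromosomes holds 1 of the 5 largest domains. No annotation of mm9 was used here, so no gene is assigned to a domain, and a shared chromosome does not place one.

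The largest domain, chr11:95982654-96252525, was covered by H3K27me3 over 66.7% and 70.0% of its span in CKp25 at 2 and 6 weeks, and over 64.9% and 72.2% in CK. The domain at chr15:102730372-102934452 was covered over 82.8% and 82.7% in CKp25, and over 79.7% and 85.8% in CK. The domain at chr6:52093638-52281648 was covered over 81.1% and 82.2% in CKp25, and over 80.7% and 84.3% in CK. In all 3 the CKp25 values lay between the CK values. The densest of the 10, chr2:74481431-74604154, had 90.4% and 88.7% in CKp25 and 88.4% and 91.2% in CK, again between the CK values. Cover was sparser and lower in CKp25 at chr9:107256986-107397126, with 28.7% and 36.6% in CKp25 and 41.2% and 52.1% in CK. Of the 10 largest, 2 had less H3K27me3 in both CKp25 lists than in either CK list, and none had more.

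Over all 1000 domains, H3K27me3 covered 37.6% and 42.5% of the span in CKp25 at 2 and 6 weeks, and 39.9% and 50.4% in CK. The CKp25 list covered less than the CK list at each time, with a ratio of 0.943 at 2 weeks and 0.844 at 6 weeks. The whole lists differed by nearly as much, with ratios of 0.952 and 0.864. Domains ranked 1001 to 2000 had lower ratios, 0.849 at 2 weeks and 0.736 at 6 weeks. Once the 4 lists were cut to the same covered length, strongest peaks first, the members' cover was 37.6% and 37.2% in CKp25 and 38.9% and 40.5% in CK, and the ratios were 0.967 and 0.920. The size of the difference, and at 2 weeks its direction, depended on which lists chose the domains. The 1000 largest domains of both CKp25 lists had 42.3% and 50.3% cover in CKp25 and 41.7% and 50.8% in CK, so that CKp25 was no longer lower at 2 weeks. The 1000 largest domains of all 4 lists together had 31.4% and 36.9% in CKp25 and 32.4% and 41.6% in CK, lower in CKp25 at both times.

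Cover and its difference both followed the size of the domain. The 100 largest had 52.4% and 56.6% of their span covered in CKp25, and 53.5% and 62.2% in CK. Ranks 501 to 1000 had 25.5% and 31.4% in CKp25, and 28.6% and 40.6% in CK. The rank order of members by cover was similar in all lists: Spearman's rho over the 1000 members was 0.938 between CKp25 and CK at 2 weeks, 0.886 at 6 weeks, 0.918 between the CKp25 lists and 0.915 between the CK lists. These are descriptions over members that share 1 list each and were chosen on the CK lists.

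**Figure D2:**
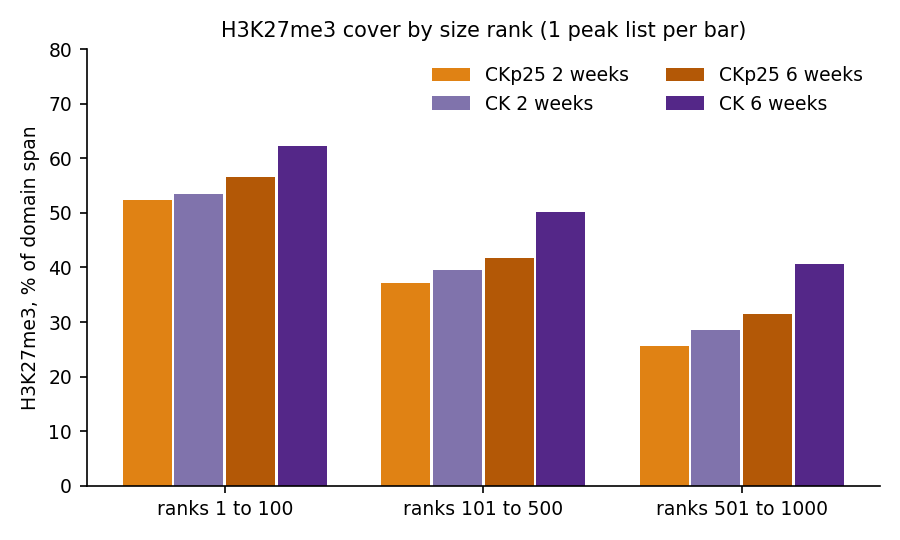
H3K27me3 cover (% of domain span) of the members ranked 1 to 100, 101 to 500 and 501 to 1000 by size, with 1 bar per peak list in the order CKp25 and CK at 2 weeks, then CKp25 and CK at 6 weeks. CK at 6 weeks is the tallest bar in every size class, with CKp25 and CK at 6 weeks at 56.6% and 62.2% in the 100 largest, and at 31.4% and 40.6% in ranks 501 to 1000.

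A change of at least 2-fold in covered length was uncommon in the members. At 2 weeks, 65 members had at least 2-fold less H3K27me3 in CKp25 than in CK, where 54.1% of all 12090 domains with cover at that time did, and 4 had at least 2-fold more (10.3% of all). At 6 weeks, 155 had at least 2-fold less (64.6% of all 16592 domains with cover) and 1 had at least 2-fold more (3.28%). By the rule, all domains outside the members are smaller than they are. Of the 1000 domains next in rank, 178 were 2-fold lower at 2 weeks and 259 at 6 weeks. The 43 members lower at both times (12% of all 19309 domains) ranked 82 or below and had a median of 8.09 kb in merged peaks, against 10.6 kb in the 823 members lower at neither time. None of the 10 largest domains and 3 of the 100 largest were 2-fold lower at 6 weeks, against 99 of ranks 501 to 1000. H3K27me3 lay below both CK lists in both CKp25 lists in 285 members (18.6% of all domains) and above both in 11 (0.849%). With lists of equal length, 272 members were below and 81 above, so the higher count depended on list length. A domain without cover in a CK list cannot lie below both, nor be 2-fold lower at both times. Such domains stay in the 18.6% and the 12%, which are thus too low to compare with the members. In the 1000 domains next in rank, 325 were below both CK lists and 19 above, and 98 were 2-fold lower at both times. All 3 counts exceeded those of the members.

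The CK lists themselves differed by time. In CK, 111 members had at least 2-fold more cover at 6 weeks than at 2 weeks (54.6% of all domains) and 0 had 2-fold less (17.4%). In CKp25, 81 members had at least 2-fold more at 6 weeks (41.1%) and 31 had 2-fold less (15.8%). Age, time since induction and any batch of a time cannot be told apart here.

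Choosing domains from 1 CK list alone left the other CK list and both CKp25 lists free of the choice. Of the 1000 largest domains of the 2-week CK list, 65 had at least 2-fold less cover in CKp25 at 2 weeks (68.8% of all 12150 domains of that list), 50 in CKp25 at 6 weeks (60.1%) and 3 in CK at 6 weeks (53.6%). Both CKp25 counts were thus above that of the unused CK list. Of the 1000 largest domains of the 6-week CK list, 223 were at least 2-fold lower in CKp25 at 2 weeks (80.6% of all 16838 domains of that list), 150 in CKp25 at 6 weeks (69.6%) and 160 in CK at 2 weeks (78%). Here the unused CK list lay between the CKp25 lists. CKp25 at 2 weeks thus had the highest count under both choices, while the place of CKp25 at 6 weeks against the unused CK list changed. The lists covered 0.709% (CKp25, 2 weeks), 0.744% (CK, 2 weeks), 0.974% (CKp25, 6 weeks) and 1.13% (CK, 6 weeks) of the autosomes. Under both choices the count fell with each longer list, so genotype and list length cannot be told apart in these counts.

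The 5 members with the lowest ratio of CKp25 over CK were of middle or small size. At chr5:136965094-136979369, H3K27me3 had no peak in either CKp25 list, against 17.6% and 40.4% of the span in CK at 2 and 6 weeks. H4K20me1 covered 98.9% and 98.1% of this domain in CKp25 and 99.3% and 97.7% in CK, and H3K27ac covered 5.78% and 8.72% in CKp25 and was listed at 0 in CK. At chr1:90532504-90554165, H3K27me3 was likewise listed at 0 in CKp25, against 13.2% and 22.8% in CK, and H3K27ac covered 0.259% and 5.28% in CKp25 and none of it in CK. The domain at chr9:32292067-32322422 had 4.88% and 0.718% H3K27me3 in CKp25, against 10.3% and 30.3% in CK. H3K27ac covered 7.80% and 14.0% of it in CKp25 and had no peak in CK. Of these 5 domains, 3 had H3K27ac peaks in both CKp25 lists and in neither CK list. So did 36 of the 1000 members (3.6%) and 1.26% of all domains. At chr1:90532504-90554165 the H3K27ac cover in CKp25 at 2 weeks was only 0.056 kb. The 5 were picked as extremes, and a link between the marks was not tested. The domain at chr5:115003079-115052108 had 2.38% and 0.416% H3K27me3 in CKp25, against 10.9% and 22.2% in CK, and H4K20me1 over 67.3% and 67.3% in CKp25 and 64.6% and 65.2% in CK. The last, chr7:122012575-122028896, had 3.31% and 1.27% H3K27me3 in CKp25, against 16.6% and 26.9% in CK, and no H3K27ac peak in any list.

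Of the 5 members with the highest ratio, chr6:99837891-99868450 and chr2:61641524-61654459 had more H3K27me3 in both CKp25 lists than in either CK list, and the other values overlapped. At chr4:136517086-136533644, H3K27me3 covered 30.3% and 65.4% in CKp25, against 19.3% and 46.3% in CK, higher in CKp25 at each time. At the chromosome 6 domain it covered 18.8% and 42.3% in CKp25, against 14.6% and 18.4% in CK. At the chromosome 2 domain, with H3K4me3 over 96.7% and 97.3% in CKp25 and 98.3% and 98.9% in CK, it covered 66.9% and 94.1% in CKp25, against 54.9% and 59.3% in CK. The remaining 2 were chr14:99225674-99241126, higher in CKp25 at 2 weeks alone (41.4% against 15.6%), and chr7:52419580-52438438, higher at 6 weeks alone (69.2% against 36.0%).

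The rule did not use the other 6 marks. Relative to the autosomes as a whole, the members were rich in H3K9me3 (4.95- to 5.50-fold over the 4 lists) and H3K4me3 (2.96- to 3.18-fold), near the autosomal level in H3K4me1 (1.23- to 1.56-fold) and H3K27ac (0.712- to 0.958-fold), and poor in H4K20me1 (0.271- to 0.378-fold) and H3K36me3 (0.0391- to 0.0641-fold). H3K4me3 had a peak in all 4 lists in 744 members (24.4% of all domains) and in 611 domains of ranks 1001 to 2000. A longer domain has more room for a peak of any mark, and as a share of span the order was the other way: H3K4me3 covered 8.43% to 10.7% of the members over the 4 lists and 11.9% to 14.2% of ranks 1001 to 2000. H3K27ac likewise covered 2.24% to 3.41% of the members and 4.55% to 6.17% of those ranks. H3K9me3 was present in all 4 lists in 247 members (2.55% of all domains), against 40 domains of the next 1000 ranks. These members were large, with a median of 19.8 kb of merged H3K27me3 peak against 8.10 kb in the 474 with H3K9me3 in no list (91.1% of all domains). H3K27ac was present in all 4 lists in 244 members (11.7% of all domains), H4K20me1 in 150 (3.38%) and H3K36me3 in 23 (0.73%). The commonest combination in all 4 lists was H3K4me3 with H3K4me1 alone, in 225 members. A further 121 also held H3K27ac, and 172 held none of the 6 marks in all 4 lists.

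**Figure D3:**
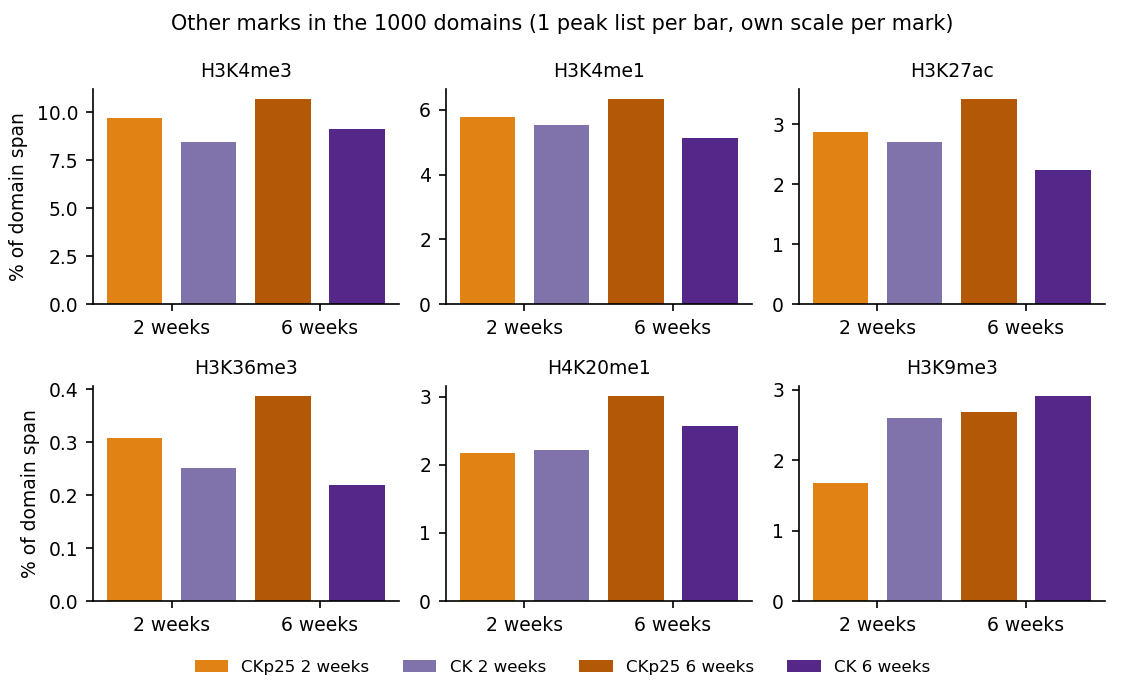
Cover of the 6 other marks in the 1000 domains (% of domain span, own scale per mark), with 1 bar per peak list in the order CKp25 and CK at 2 weeks, then CKp25 and CK at 6 weeks. H3K4me3 is higher in both CKp25 lists than in either CK list, H3K27ac is highest in CKp25 at 6 weeks (3.41%), and H3K9me3 is lowest in CKp25 at 2 weeks (1.68%).

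H3K4me3 was the mark with the most even difference. It covered 9.67% and 10.7% of the members' span in CKp25 at 2 and 6 weeks, and 8.43% and 9.14% in CK, a ratio of 1.15 and 1.17. The whole H3K4me3 lists were also longer in CKp25, with ratios of 1.09 and 1.09, and after cutting the lists to equal length the ratios in the domains were 1.07 and 1.10. Of the 846 members with a peak in any list, 371 had more H3K4me3 in both CKp25 lists than in either CK list (43.9%). A further 26 had less (3.07%). The shares were 29% and 4.12% of all domains with the mark. They were 38.0% and 5.79% of the 726 domains next in rank that had the mark. In the 100 largest domains, 55 were higher and 1 was lower, and in the 10 largest 7 were higher and 0 lower. H3K4me3 was gained, with a peak in both CKp25 lists and in neither CK list, in 13 members (0.958% of all domains, 185 of the 6135 with the mark). It was lost in 0 (0.186%, 36 of the 6135). For every mark, shares of all domains for gain and loss include domains without the mark, which members lack less often. After the cut to equal length, 284 members were higher and 61 lower. Ranked by the gap in covered length between the CKp25 and the CK lists, as for every mark below, the largest gain was at chr11:11576315-11597789, where H3K4me3 covered 26.8% and 26.4% in CKp25, against 9.17% and 8.53% in CK. H3K27me3 covered 12.3% and 16.2% of that domain in CKp25, against 16.2% and 20.3% in CK. The next was at chr11:95690740-95707438, with 56.6% and 71.6% in CKp25, against 12.9% and 35.8% in CK. The largest losses were smaller in proportion, with 82.7% and 64.4% in CKp25 against 90.5% and 88.8% in CK at chr1:191985833-192000542, and 8.51% and 7.98% against 10.5% and 10.5% at chr13:95364084-95380740.

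H3K27ac, the mark of active promoters and enhancers, covered 2.87% and 3.41% of the span in CKp25 and 2.71% and 2.24% in CK. The ratio was 1.06 at 2 weeks and 1.52 at 6 weeks, where the whole lists had 0.961 and 1.13. Cover was higher at 6 than at 2 weeks in CKp25 and lower at 6 than at 2 weeks in CK. With lists of equal length the ratios were 1.09 and 1.30. Of 506 members with H3K27ac in any list, 139 were higher in both CKp25 lists (27.5%) and 44 lower (8.70%). Among all domains with the mark 20.2% were higher and 8.78% lower. Among the 486 with the mark in the next 1000 ranks, 27.4% were higher and 7.41% lower. The share higher was thus nearly the same there as in the members. H3K27ac was gained in 36 members (1.26% of all domains, 244 of the 4421 with the mark) and lost in 5 (0.295%, 57 of the 4421). The next 1000 ranks had 17 gains and 5 losses. Of the 43 members 2-fold lower in H3K27me3 at both times, 9 were higher in H3K27ac (20.9%), against 113 of the 823 lower at neither time (13.7%). In the 155 members lower at 6 weeks the share was 14.8%. Shares higher in H3K4me3 ran the other way, with 11 of the 43 (25.6%) and 328 of the 823 (39.9%), as did those higher in H3K4me1, with 6 (14.0%) and 178 (21.6%). The largest gain was again chr11:95690740-95707438, where H3K27ac covered 52.0% and 55.0% in CKp25, against 17.0% and 8.44% in CK. H3K27me3 there was 28.3% and 40.1% in CKp25, and 34.8% and 36.6% in CK, which overlap. At chr4:136446164-136467090, H3K27ac covered 27.2% and 25.6% in CKp25 and had no peak in CK, while H3K27me3 covered 20.5% and 42.5% in CKp25, and 22.8% and 47.1% in CK. The largest losses were at chr13:36815498-36827977, with 63.6% and 57.8% in CKp25 against 75.2% and 73.5% in CK, and at chr12:107604601-107620887, with 1.98% and 3.87% against 13.9% and 11.1%.

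H3K4me1, found around enhancers and promoters, covered 5.78% and 6.32% in CKp25, and 5.52% and 5.12% in CK, with ratios of 1.05 and 1.23. The whole H3K4me1 lists were shorter in CKp25, with ratios of 0.926 and 0.975. Of 861 members with the mark, 205 were higher in both CKp25 lists (23.8%) and 93 lower (10.8%). Among all domains with the mark 15.1% were higher and 12.6% lower. Among the 738 next in rank that had the mark, 16.4% were higher and 14.8% lower. H3K4me1 was gained in 13 members (0.886% of all domains, 171 of the 6180 with the mark). It was lost in 11 (0.994%, 192 of the 6180). In the 100 largest domains, 34 were higher and 8 lower, and in the 500 members ranked 501 to 1000, 89 (17.8%) and 48 (9.6%). The largest gains were in 2 of the 10 largest domains. At chr2:74481431-74604154, H3K4me1 covered 4.85% and 4.62% in CKp25, against 2.51% and 2.75% in CK, and at chr7:144382828-144536884 it covered 2.40% and 2.18% in CKp25, against 0.753% and 0.696% in CK. The largest losses were at chr19:41169682-41205270, with 10.4% and 10.3% in CKp25 against 15.6% and 16.6% in CK, and at chr4:151240478-151260844, with no peak in CKp25 and 5.05% and 5.10% in CK.

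The marks of gene bodies were scarce in the members. H3K36me3 covered 0.307% and 0.386% in CKp25, and 0.251% and 0.219% in CK, and had a peak in any list in 78 members, of which 24 were higher in both CKp25 lists (19.5% of all domains with the mark) and 7 lower (5.89%). As shares of those 78 this was 30.8% and 8.97%, against 26% and 4% of the 50 domains next in rank that had the mark. With lists of equal length 12 members were higher and 7 lower. It was gained in 9 members (0.186% of all domains, 36 of the 492 with the mark) and lost in 2 (0.0363%, 7 of the 492). The ratios, 1.22 and 1.76, rest on few domains. At chr2:31325410-31360691 alone, H3K36me3 covered 30.3% and 40.6% in CKp25, against 11.6% and 11.2% in CK, and H3K27me3 covered 8.81% and 11.4% in CKp25, against 14.7% and 29.3% in CK. The next gain, in a domain on chromosome 18, had 8.79% and 9.42% in CKp25, against 2.20% and 3.25% in CK. The largest losses were at chr2:56954336-56965268, with 5.87% and 3.45% in CKp25 against 13.1% and 11.6% in CK, and at chr13:36815498-36827977, with no peak in CKp25 and 10% and 5.01% in CK. H4K20me1 covered 2.18% and 3.00% of the span in CKp25, and 2.22% and 2.57% in CK, with ratios of 0.981 and 1.17. Of 339 members with H4K20me1, 60 were higher in both CKp25 lists (17.7%) and 45 lower (13.3%). Among all domains with the mark 12.9% were higher and 11.7% lower. Among the 175 next in rank that had the mark, 18.9% were higher and 9.14% lower. H4K20me1 was gained in 13 members (0.285% of all domains, 55 of the 1618 with the mark) and lost in 12 (0.254%, 49 of the 1618). With lists of equal length 88 were higher and 12 lower, and the ratios were 1.38 and 1.32. The largest gain was at chr5:140827284-140874606, with 32.4% and 47.9% in CKp25, against 20.2% and 22.0% in CK, where H3K27me3 was 8.88% and 4.50% in CKp25, against 14.3% and 31.4% in CK. The next was at chr8:91527229-91573684, with 12.4% and 14.6% against 7.01% and 5.54%. The largest losses were at chr5:98608395-98618969, with 4.78% and 13.9% in CKp25 against 36.3% and 36.3% in CK, and at chr9:58043980-58052124, with no peak in CKp25 and 23.1% and 20.7% in CK.

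H3K9me3 ran the other way. It covered 1.68% and 2.68% of the members' span in CKp25, and 2.60% and 2.91% in CK, with ratios of 0.647 and 0.922. At 2 weeks the whole CKp25 list was shorter still, with a ratio of 0.586, and with lists of equal length the ratios were 0.957 and 0.925. Of 526 members with H3K9me3 in any list, 125 were lower in both CKp25 lists than in either CK list (23.8%) and 24 higher (4.56%). Among all domains with the mark 15.9% were lower and 4.71% higher. Among the 202 next in rank that had the mark, 11.4% were lower and 7.43% higher. With lists of equal length 69 members were lower and 46 higher, so the count depended on list length. In the 100 largest domains 37 were lower and 0 higher, and in the 500 members ranked 501 to 1000, 24 were lower and 7 higher. H3K9me3 covered 4.96% of the span in the 100 largest and 0.983% in ranks 501 to 1000 in CK at 2 weeks. For no mark were counts by size rank repeated with lists of equal length. H3K9me3 was lost in 22 members (0.461% of all domains, 89 of the 1718 with the mark) and gained in 3 (0.129%, 25 of the 1718). The largest loss was at chr13:95629989-95712402, with 7.32% and 6.94% in CKp25, against 10.6% and 11.3% in CK. The next was in the largest domain, chr11:95982654-96252525, with 3.35% and 5.93% in CKp25, against 6.88% and 7.35% in CK. The largest gains were small, with 0.957% and 0.849% at chr7:122786001-122836048 and 2.27% and 3.73% at chr6:100465695-100482054 in CKp25, and no peak in CK at either.

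**Figure D4:**
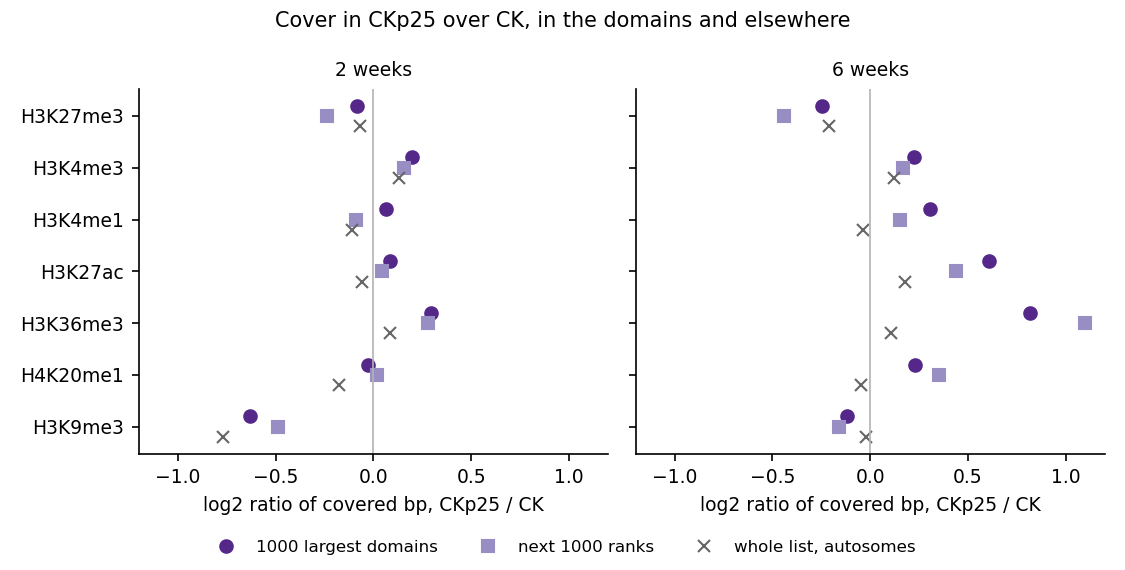
Log2 ratio of covered length, CKp25 over CK, for each mark at 2 weeks (left) and 6 weeks (right), in the 1000 largest domains (circles), in ranks 1001 to 2000 (squares) and over the whole list on the autosomes (crosses). At 6 weeks the circles of H3K4me1 (0.30), H3K27ac (0.61), H3K36me3 (0.82) and H4K20me1 (0.23) lie right of their crosses. The squares of these marks do so too, at unlogged ratios of 1.11, 1.35, 2.14 and 1.28. Those of H3K36me3 and H4K20me1 also lie right of the circles. The circles of H3K27me3 (-0.24) and H3K9me3 (-0.12) lie left of 0.

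Members that carried H3K4me3 had denser H3K27me3. The 744 members with H3K4me3 in all 4 lists had H3K27me3 over 41.8% and 47.1% of their span in CKp25 and 43.7% and 53.7% in CK. The 154 members with H3K4me3 in no list (68.2% of all domains) had 21.9% and 24.8% in CKp25 and 25.2% and 37.3% in CK. At 6 weeks, 77 of the first set (10.3%) and 45 of the second (29.2%) had at least 2-fold less H3K27me3 in CKp25. The second set was sparser in CK too, with merged peaks over 45.0% of its span against 59.8%, and whether density alone goes with the difference was not tested.

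Within the domains the marks had different positions. H3K27me3 was densest in the middle, with 46.2% and 50.5% of the central 10% covered in CKp25, and 47.2% and 57.8% in CK. In the outermost 5% of the span on each side it was 21.5% and 30.3% in CKp25, and 30.6% and 52.7% in CK. The edges were set by CK peaks, so a CK peak begins at each of them by construction. For the same reason the CK lists have no peak in the first 5 kb outside, whereas the CKp25 lists covered 1.98% and 3.43% there. H3K4me3 also peaked in the middle, with 15.3% and 16.6% in CKp25 and 13.3% and 14.4% in CK, against 2.89% and 3.24% in CKp25 and 2.69% and 2.90% in CK within 5 kb outside. H3K36me3 had the reverse shape. It covered 0.332% and 0.376% of the central 10% in CKp25 and 0.276% and 0.261% in CK, and between 10 and 20 kb outside 5.27% and 5.10% in CKp25 and 4.92% and 4.51% in CK. H4K20me1 also lay mostly outside, with 5.15% and 6.02% between 10 and 20 kb in CKp25 and 5.42% and 5.31% in CK, against 2.90% and 3.93% of the central 10% in CKp25 and 2.91% and 3.41% in CK. In each list the 2 gene-body marks were thus lower inside the domains than in the outer flanks.

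**Figure D5:**
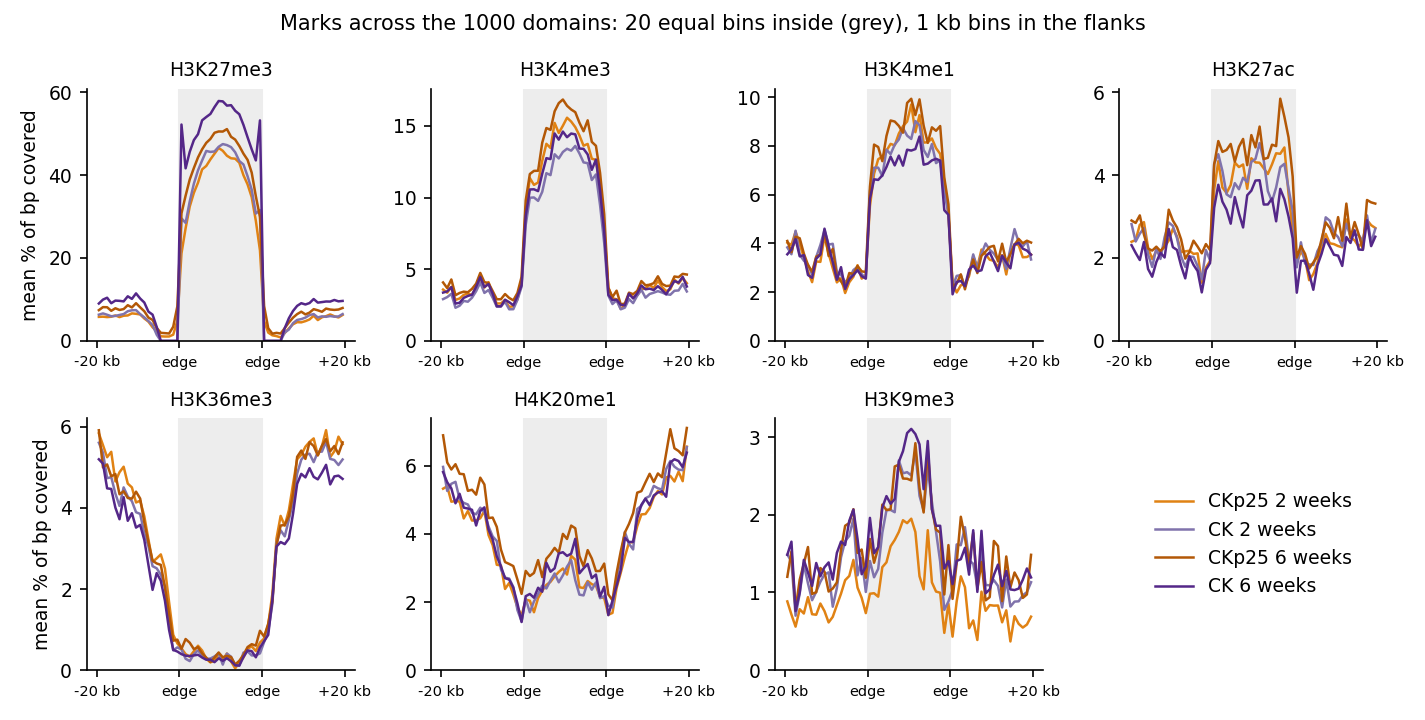
Mean share of base pairs covered by each of the 7 marks across the 1000 domains, in 20 equal bins inside the domain (grey) and in 1 kb bins over 20 kb on each side, with 1 line per peak list. H3K27me3 and H3K4me3 peak in the middle, H3K36me3 falls close to 0 inside, and the H3K9me3 line of CKp25 at 2 weeks lies under the other 3.

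Except for H3K36me3, peaks of the other marks mostly lay on the merged H3K27me3 peaks and not in the gaps between them. H3K4me3 covered 14.7% and 16.2% of merged-peak length in CKp25 and 12.8% and 13.9% in CK, but 3.12% and 3.35% of the gaps in CKp25 and 2.69% and 2.90% in CK. H3K9me3 had 81.4% and 82.4% of its covered length in the members on merged peaks in CKp25, and 82.2% and 82.3% in CK. H3K36me3 had 52.4% and 53.6% there in CKp25, and 52.1% and 54.6% in CK. This was a little below the 56.8% of the span that merged peaks make up. H3K36me3 covered 0.284% and 0.364% of merged-peak length in CKp25, against 0.338% and 0.415% of the gaps. In CK it covered 0.230% and 0.211% of merged-peak length, against 0.278% and 0.230% of the gaps. CKp25 H3K27me3 itself lay partly in the CK gaps, of which it covered 7.58% at 2 weeks and 10.5% at 6 weeks. The authors' deposited fold enrichment had a median of 3.26 and 3.31 for CKp25 peaks in the domains and 3.48 and 3.22 for CK peaks, against 2.96 and 2.95 for CKp25 peaks elsewhere and 3.17 and 2.96 for CK peaks elsewhere.

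The RNA libraries held 5029996 to 6450140 gene counts each. At 6 weeks the share of alignments that were not unique was 11.5% to 13.9% in CKp25 and 6.86% to 9.52% in CK, and that of reads in no feature was 38.1% to 40.2% in CKp25 and 41.6% to 46.1% in CK, both without overlap. At 2 weeks the share not unique was 6.81% in CKp25_2wk_4518 and 7.15% in CK_2wk_4520, far below the 12.2% and 13.7% of the remaining CKp25 and the 13.8% and 14.3% of the remaining CK libraries. The part of these shares in the RNA differences was not tested at 6 weeks. Without those 2 libraries, 2 subunit genes rose and 3 fell at 2 weeks, and 1 developmental gene rose and 1 fell, where the counts given next use all libraries. RNA was compared with edgeR's quasi-likelihood test over 14457 genes, with Benjamini-Hochberg adjustment, for genes that write or read H3K27me3 and for its textbook targets. All 33 subunit and demethylase genes were tested. At 2 weeks 3 rose and 2 fell in CKp25, where 11.6% of all genes rose and 7.99% fell, and at 6 weeks 4 rose and 4 fell (18.1% and 15.2% of all genes). Their median log2 change was -0.0038 at 2 weeks and -0.13 at 6 weeks, beside -0.013 and 0.0033 over all genes tested. The catalytic subunit Ezh1, which is the main one in non-dividing cells, had 68.6, 66.5 and 75.8 CPM (counts scaled to a common library size) in CKp25 at 6 weeks, against 81.8, 96.7 and 89.6 CPM in CK, without overlap. Its log2 change was -0.35 (SE 0.09, edgeR adjusted p = 0.0050). The other catalytic subunit, Ezh2, did not pass and had changes of the opposite sign. They were 0.54 at 2 weeks (edgeR adjusted p = 0.084) and 0.41 at 6 weeks (edgeR adjusted p = 0.16). Phf19, which helps PRC2 bind chromatin, had 1.80, 2.09 and 2.73 CPM in CKp25 at 6 weeks, against 0.610, 0.202 and 0.698 CPM in CK, a log2 change of 2.06 (SE 0.47, edgeR adjusted p = 0.0025) at a low level. At 2 weeks its log2 change was 3.35 (SE 0.47, edgeR adjusted p = 5.5e-05).

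The other subunits that passed at 6 weeks changed by less than Phf19. The PRC2 core gene Eed rose by 0.76 on the log2 scale (edgeR adjusted p = 0.0081), Pcgf5, a PRC1 gene, rose by 0.79 (edgeR adjusted p = 0.0043), and Cbx6, which encodes a PRC1 reader of H3K27me3, fell by 0.44 (edgeR adjusted p = 0.00091). Eed lost its call without the library CKp25_6wk_4008 (edgeR adjusted p = 0.055). Pcgf6 fell by 0.39 (edgeR adjusted p = 0.035) and Mtf2, which encodes a PRC2 accessory protein, fell by 0.24 (edgeR adjusted p = 0.045), while the histone chaperone gene Rbbp4 rose by 0.19 (edgeR adjusted p = 0.049). The calls of Pcgf6, Mtf2 and Rbbp4 were lost under 5, 8 and 14 of 15 alternatives, with adjusted p values up to 0.14, 0.17 and 0.19. Pcgf6 and Mtf2 each lost theirs without CKp25_6wk_3937, CKp25_6wk_4008, CK_6wk_3938 or CK_6wk_4009. At 2 weeks the others that passed were Suz12 (log2 change 0.39), Rbbp7 (0.26), Cbx6 (-0.30) and Cbx7 (-0.34). At that time Suz12 and Phf19 kept their calls under all 15 alternatives, and Rbbp7, Cbx6 and Cbx7 lost theirs under 6, 4 and 3, with adjusted p values up to 0.13, 0.13 and 0.072. Leaving out CK_2wk_4891 or CKp25_2wk_4894 ended all 3 of these calls. The abundant Phc3, Rbbp7, Kdm6a and Aebp2 did not pass at 6 weeks, with log2 changes of 0.072, -0.17, 0.061 and -0.11.

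The Hox genes were near silent in every group. Of 39 Hox genes in the list 38 matched a gene of the table, none passed the filter on low counts, and 26 had no count in any library. Their counts summed to 3 to 8 per library in CKp25 and 0 to 2 in CK at 2 weeks, and to 4 to 5 in CKp25 and 0 to 3 in CK at 6 weeks. On the CPM scale this was 0.906 ± 0.415 in CKp25 and 0.187 ± 0.198 in CK at 2 weeks, and 0.779 ± 0.0355 in CKp25 and 0.237 ± 0.260 in CK at 6 weeks (SD, n = 3 each). The groups did not overlap at either time, at a level of a few reads. Of 89 other developmental regulators 87 matched and 27 passed the filter. At 2 weeks 0 rose and 0 fell with edgeR and with DESeq2, and 3 were higher and 2 lower at an unadjusted edgeR p under 0.05. At 6 weeks 5 of the 27 rose, where 18.1% of all genes did, and 1 fell, where 15.2% did. The median log2 change was 0.0077 at 2 weeks and 0.30 at 6 weeks, beside -0.013 and 0.0033 over all genes tested. Pax6, a regulator of neural progenitors that astrocytes also express, had 22.0, 14.7 and 17.5 CPM in CKp25 at 6 weeks, against 6.71, 10.7 and 9.60 CPM in CK, a log2 change of 0.99 (SE 0.19, edgeR adjusted p = 0.00069). Tbx18 (1.72), Foxc1 (1.15), Nkx6-2 (1.03) and Sox17 (1.02) also rose, Lhx9 fell by 0.99 on the log2 scale, and all are known as developmental transcription factors. Tbx18 lost its call without CKp25_6wk_3937 or CK_6wk_3938, and Foxc1 without either of these, CKp25_6wk_4008 or CK_6wk_3936, with adjusted p values of 0.050 to 0.078 over both genes. The more abundant Lhx2, a transcription factor of the forebrain, and Zic1 and Olig2 did not pass, with log2 changes of -0.21, 0.68 and 0.25.

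Cell type markers moved with the genotype in the same RNA, and all 30 passed the filter on low counts. The 8 neuronal markers summed to 1461 to 1949 CPM in CKp25 and 2660 to 3129 CPM in CK at 6 weeks, and 7 of them fell. The 4 astrocyte markers summed to 8652 to 10855 CPM in CKp25 and 4682 to 5188 CPM in CK, and 4 rose. The 5 markers of microglia and macrophages summed to 618.8 to 808.3 CPM in CKp25 and 130.4 to 154.5 CPM in CK, and 5 rose. The 4 oligodendrocyte and 3 endothelial markers also rose at 6 weeks, and 0 of them passed at 2 weeks. The 2 markers of dividing cells summed to 156.4 to 273.6 CPM in CKp25 and 3.89 to 4.88 CPM in CK at 2 weeks, and to 34.2 to 50.6 CPM in CKp25 and 3.49 to 4.86 CPM in CK at 6 weeks. The 4 choroid plexus markers did not pass, with sums of 14.5 to 1972 CPM in CKp25 and 35.0 to 2391 CPM in CK at 6 weeks. The part of these cell types in the cover of the domains, and in the RNA changes of the subunit and developmental genes, was not tested.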

How the data were processed

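Peak lists were deposited as 1 narrowPeak list per mark and group. Per the submitters' processing notes, Bowtie, Picard, MACS2 and HTSeq 0.6.1 were run on NCBIM37 and mm9, the same mouse build under its names at NCBI and UCSC, and the labels' protocols give a stranded total RNA kit. Whether counting used strand is not stated here, so a gene and an overlapping antisense gene may share reads. Deposited -log10 p-values were used to filter peaks at 5 or more, which leaves out the weaker deposited peaks of every list. The authors' fold enrichment (a ratio over extract) was used only to describe peaks. Cover is the length of a domain under a mark's merged peaks, in percent of the domain's span, stitched gaps included, and depends on the length and depth of each list. A 2-fold change compares covered bp. Higher or lower in both CKp25 lists means that the genotypes did not overlap, and calls over all domains take those with cover in a list compared. Domains were computed in Python 3.11.15 with numpy 2.4.6 and pandas 2.3.3, and interval functions were checked on simulated data. For the domains of lowest and highest ratio, 1000 bp were added to both lengths.

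For RNA, the authors deposited raw counts of reads by Ensembl gene for 12 libraries, 3 per group. Since no label ties a library to an animal, p-values reflect only differences among libraries, possibly technical ones. The library totals given are gene counts. Entries naming no gene (5) held 60.0% to 63.6% of a library's reads and were left out. Counts were fitted in R 4.3.3 with edgeR 4.0.16 (filterByExpr, TMM factors, quasi-likelihood test, 4 group means), with DESeq2 1.42.0 as an alternative, and the same steps were tested on simulated data. An SE is the log2 change over the square root of the test's F. Symbols were matched for 32919 of 37991 genes.

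The domains, lists and rules were chosen with earlier results of these data known. Named domains were the 10 largest, 3 on each side of rank 1000, the 5 lowest and 5 highest in H3K27me3 ratio, and the 2 largest gains and losses of each other mark in covered bp. Named genes were, per list, up to 6 past an adjusted p of 0.05 with the largest change at 6 weeks and up to 4 not past it with the highest level. Others that passed, and Ezh2, were added after their values were seen. One gene that the rule names is not reported here. Alternatives were the peak minimum (none or 10), stitching within 1 or 12 kb, the 500 or 2000 largest domains, lists of equal covered length, other lists to choose the domains, a 1.5-fold limit, a mark at 10% of the span, DESeq2, no filter on low counts, and leaving out libraries.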

Additional observations from a re-analysis of the deposited data

Results flagged for a closer look

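H4K20me1 cover of the domains stood on opposite sides of 1 at the 2 times, with a ratio of CKp25 over CK of 0.981 at 2 weeks and 1.17 at 6 weeks. Each value compares 1 list with 1 list, and the difference between the times was not tested. The whole H4K20me1 lists had ratios of 0.885 and 0.969, and with lists cut to equal length the ratios in the domains were 1.38 and 1.32, both above 1.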

How the results depend on the processing

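Of 196 alternatives to the 20 ratios of covered length, 165 moved the value by less than the SD between the CK lists, which includes their difference in time. For H3K27me3 in the 1000 domains no alternative moved the ratio at either time beyond that spread (0.24 on the log2 scale). This spread was about as large as the 6-week value and larger than the 2-week one. An alternative could thus take away nearly all of either difference and still stay within it. With domains chosen from both CKp25 lists the log2 ratios were 0.022 and -0.014, against -0.084 and -0.24 as reported; this choice alone of 11 alternatives turned the sign, at 2 weeks, and none did at 6 weeks. In the following, values are log2 ratios at 2 and then at 6 weeks where both are given. With lists cut to equal covered length they were 0.10 and 0.14 for H3K4me3, 0.18 at 2 weeks for H3K4me1, 0.38 at 6 weeks for H3K27ac, 0.049 and 0.41 for H3K36me3, 0.46 and 0.40 for H4K20me1, and -0.063 at 2 weeks for H3K9me3. In domains chosen from the 6-week CK list alone, the same cut moved H3K27me3 beyond the spread, to -0.13 for CKp25 at 2 weeks over CK at 6 weeks, against -0.42 without it, and to -0.12 for CK at 2 weeks over CK at 6 weeks, against -0.38. With a minimum of 10 they were -0.20 and 0.44 for H3K4me1, -0.25 and 0.0031 for H3K36me3, and -0.85 and -0.29 for H3K9me3. With all deposited peaks they were, at 2 weeks, 0.14 for H3K4me1, 0.63 for H3K36me3 and -0.40 for H3K9me3. With domains chosen from both CKp25 lists they were, at 6 weeks, 0.22 for H3K4me1, 0.32 for H3K27ac and -6.89e-06 for H4K20me1, and -0.024 and 0.086 for H3K36me3. H3K36me3 also moved with stitching within 12 kb (0.44 at 2 weeks) or 1 kb (0.99 at 6 weeks) and in the 500 largest domains (0.65 and 1.37). Leaving out 1 choosing CK list gave H3K36me3 ratios of 0.0067 to 0.26 and 0.54 to 0.71. The causes were not tested.

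Of 372 alternatives to counts and percentages of domains, 124 moved by over 1.5 times. These cover 2-fold changes of H3K27me3 and, for each other mark, the domains higher, lower, gained and lost. Apart from counts with lists of equal length, the moved values are not listed here, so a single count may depend on the settings. For RNA, DESeq2 left 2 subunits lower at 6 weeks. Without a filter on low counts, 1 developmental gene was higher and 1 lower at 2 weeks and 9 were higher at 6 weeks. Without CK_2wk_4520 and CKp25_2wk_4518, 1 was higher and 1 lower at 2 weeks. Leaving out 1 library gave 0 to 3 subunits lower at 2 weeks, 2 to 5 higher and 2 to 6 lower at 6 weeks, and 0 to 1 developmental genes higher and 0 to 1 lower at 2 weeks and 3 to 6 higher at 6 weeks. The planned RNA comparison of genes at the domains was not run. No paired analysis was possible because lists and libraries share no number between groups. The number of lists limits the precision, and their read depth is unknown here.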
